A study of Mus musculus with 6 samples.

Results

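The coat of the lipid droplet and the enzymes that release fatty acids from it were followed in the mammary fat pads of mice without Pxmp2, a channel of the peroxisomal membrane, and of wild-type (WT) mice. The 10 genes chosen were the droplet coat genes Plin1, Plin2, Plin4, Plin5, Cidea and Cidec and the lipolysis genes Pnpla2, Lipe, Abhd5 and G0s2, taken by name, with no threshold on a measured value. Every probe set (a group of short probes for one transcript) whose annotation gave exactly 1 gene symbol equal to one of these names was used. There were 14 such probe sets for 9 of the 10 genes, out of 18193 genes named in the same way on the array. Plin1 had none among them and was not analysed here. Of the 14 probe sets, 12 passed a filter on dim signals and were tested, at least 1 for each of the 9 genes.

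RNA came from fat pads 4 and 9 of 6 female mice on the C57BL/6J background, 3 of each genotype. Ovaries had been removed from all of them at 21 days of age, estradiol was given at 31 days, and tissue was collected 8 h later. The sources used here do not say how the Pxmp2 allele was made or whether the WT mice were littermates. Both genotypes had the same surgery and the same hormone, and no untreated mice are among the arrays.

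A fat cell stores triglyceride in a droplet with a coat of proteins. Perilipins cover the droplet and control the access of lipases, and CIDE proteins let droplets exchange lipid and grow. Lipolysis starts with Pnpla2 (adipose triglyceride lipase), goes on with Lipe (hormone-sensitive lipase), and is tuned by Abhd5, which activates Pnpla2, and G0s2, which inhibits it. Peroxisomes lie close to droplets and take up some of the fatty acids that are released.

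The labels matched the arrays: Pxmp2 read 2643, 2465 and 2797 in the WT mice and 308, 262 and 260 in the Pxmp2-/- mice. Array medians were 98.5 to 105 arbitrary intensity units, and the highest value on an array was 20504 to 22654. The first principal component separated the genotypes, at -26.8 to -13.3 in WT and 3.5 to 28.4 in Pxmp2-/- mice, with Pxmp2-/- 1 nearest to WT. Mouse Pxmp2-/- 1 stood apart on the second principal component (26.7, against -15.7 to 6.6 for the others). The fat cell markers were strong, with Adipoq (adiponectin) between 15299 and 16991. The brown fat marker Ucp1 was high as well, at 7106 to 11098, while the epithelial marker Epcam read 31.6 to 49.7, under the level filter of 59.1. In bulk tissue, fewer cells of a type and less RNA per cell cannot be told apart.

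No gene of the droplet coat or of lipolysis passed the threshold. Over the 12 tested probe sets the limma adjusted p ranged from 0.3 to 0.998. Of the 12, 0 passed an adjusted p of 0.05, where 0.0629% of all 27022 tested probe sets did. None had an unadjusted limma p under 0.05, where 16.6% of all tested probe sets did. That absence is by a narrow margin, since the lowest were 0.05004 (Abhd5 1417565_at) and 0.0597 (Pnpla2 1428591_at). Log2 differences, Pxmp2-/- minus WT, lay between -0.25 and 0.19, with standard errors (SE) of 0.08 to 0.12. The genotypes did not overlap in 1 of the 12 (8.33%), against 22.8% of all tested probe sets. With 3 mice per genotype, the 95% intervals of the 12 differences ran from 29.2% lower to 36.5% higher at their widest. These intervals hold for a single probe set each and were not widened for their number, and a p above the threshold does not show that the genotypes are alike.

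**Figure D1:**
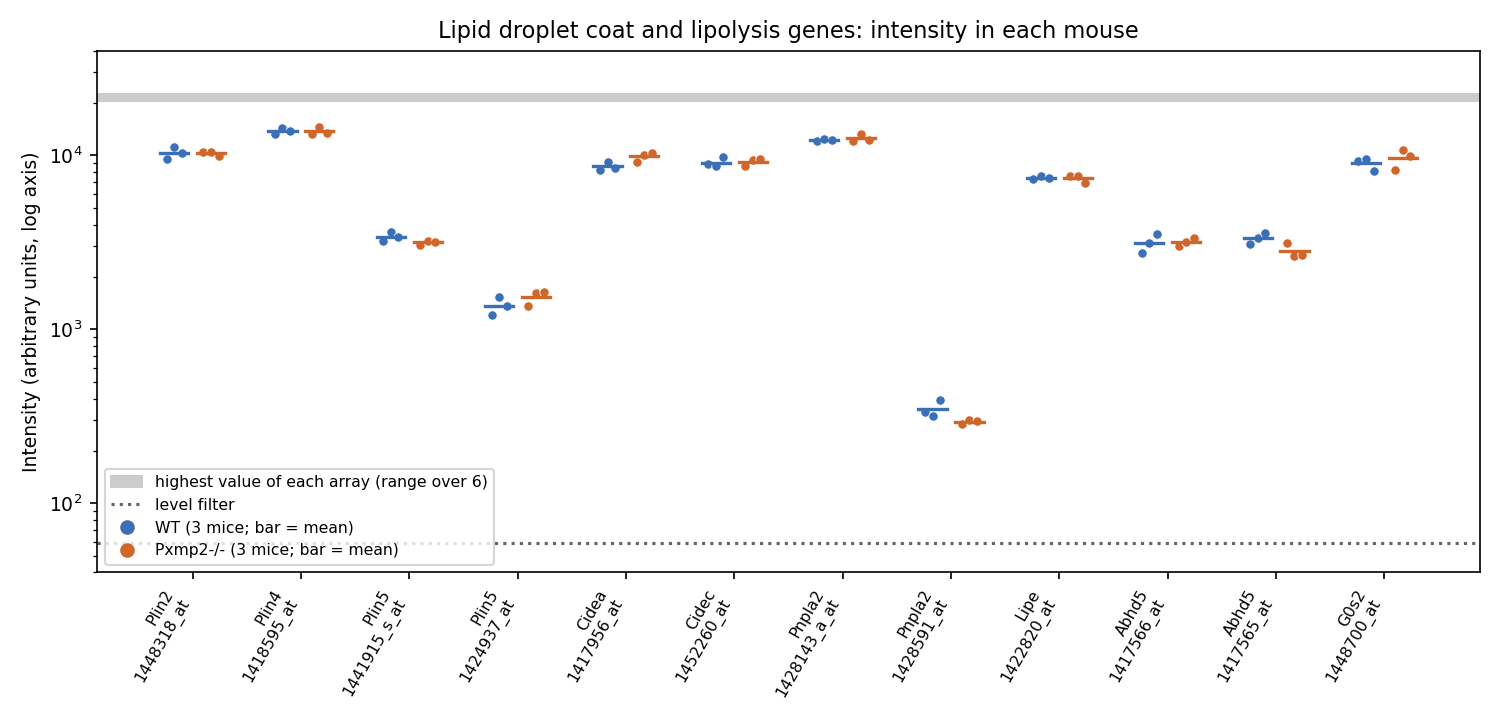
Intensity (log axis, arbitrary units) of the 12 tested probe sets of 9 droplet coat and lipolysis genes in 3 WT and 3 Pxmp2-/- mice; points are mice, bars are means, the grey band is the range of the highest value on each array. Only the dimmer Pnpla2 probe set (1428591_at) has all Pxmp2-/- mice below all WT mice.

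Plin2, a perilipin found on droplets of many cell types, read 9509, 11141 and 10347 in the WT mice and 10445, 10518 and 9992 in the Pxmp2-/- mice. The 3 Pxmp2-/- mice fell inside the WT range. The log2 difference was 0.00063 ± 0.09 (SE, n = 3 per genotype), with an interval from 13.6% lower to 15.9% higher and a limma adjusted p of 0.998. Macrophages also carry Plin2, and all 3 Pxmp2-/- mice had a higher summed level of 12 macrophage markers (15657 to 20321) than the WT mice (13434 to 13879). Of these markers 10 of 12 were higher in Pxmp2-/- mice, none of them past the adjusted threshold, and none read below 56.4 on any array. An unadjusted limma p under 0.05 was found for 7 of the 12, against 14.2% of all tested genes. Groups were separate for 7 of the 12, against 22.6%. The part of macrophages in the Plin2 signal was not tested.

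Plin4, a perilipin of white fat cells that coats small new droplets, read 13339, 14389 and 13736 in WT and 13283, 14630 and 13513 in Pxmp2-/- mice. Lowest and highest value both came from Pxmp2-/- mice, so the groups overlapped fully. Its difference was -0.0019 ± 0.08 (SE), with an interval from 12.9% lower to 14.5% higher. This probe set stood at 61.1% to 66.8% of the highest value of its array. Signals above 50% of that value on all 6 arrays were counted as near the maximum, where a change may show less than fully. Plin2 stood below this limit, at 43.5% to 49.2%. Cidea stood at 37.8% to 50.5%, so not above the limit on every array.

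Plin5, which ties droplets to mitochondria in cells that burn fat, is the direct neighbour of Plin4 on chromosome 17. Its brighter probe set (1441915_s_at) read 3231, 3612 and 3385 in WT and 3072, 3231 and 3183 in Pxmp2-/- mice, a log2 difference of -0.11 ± 0.08 (SE; limma adjusted p = 0.54). Its dimmer one (1424937_at) read 1207, 1533 and 1361 in WT and 1359, 1617 and 1633 in Pxmp2-/- mice, a difference of 0.17 ± 0.12 (SE; adjusted p = 0.499). The pair pointed in opposite directions. The groups overlapped in both, in the brighter one only through WT 1 and Pxmp2-/- 2, which read the same. Without WT 1 the dimmer one differed by 0.08, and without WT 2 by 0.25 and the brighter one by -0.06.

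Cidea, a CIDE protein typical of brown and beige fat, had the largest positive difference of the 9 genes. It read 8264, 9182 and 8503 in WT and 9136, 10119 and 10347 in Pxmp2-/- mice. Pxmp2-/- 1 lay just below WT 2, and the other Pxmp2-/- mice lay above all WT mice. The log2 difference was 0.19 ± 0.09 (SE), or 14% higher, with an interval from 1.65% lower to 32.1% higher and a limma adjusted p of 0.337. Without Pxmp2-/- 1 it was 0.24 (limma adjusted p = 0.212), and without Pxmp2-/- 3 it was 0.15 (adjusted p = 0.604). The summed level of 11 brown fat markers was 31308 to 39417 in WT and 34122 to 40823 in Pxmp2-/- mice, and WT 1 was lowest both in that sum and in Cidea. Among the brown fat markers Zic1 was at background, at 2.98 to 17.2. The part of brown fat cells in the Cidea values was not tested.

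Cidec, the CIDE protein that keeps droplets of white fat large and single, read 8876, 8683 and 9758 in WT and 8671, 9388 and 9481 in Pxmp2-/- mice. The values of both genotypes were interleaved. The log2 difference was 0.01 ± 0.09 (SE; adjusted p = 0.956), with an interval from 12.7% lower to 16.5% higher.

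**Figure D2:**
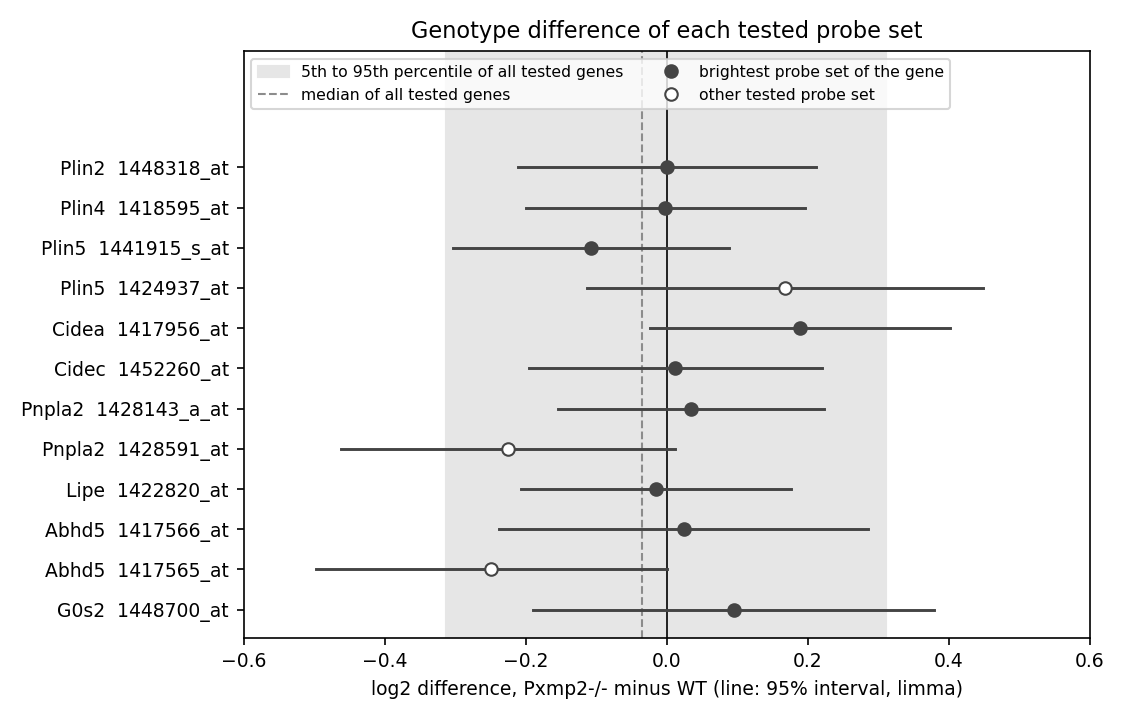
Log2 difference, Pxmp2-/- minus WT, of the 12 tested probe sets with 95% intervals from limma (3 mice per genotype); filled points are the brightest probe set of a gene, open points other probe sets, the grey area holds the 5th to 95th percentile of all tested genes. Every interval includes 0, that of Abhd5 1417565_at only barely (upper limit 6.07e-05), and the points range from -0.25 to 0.19.

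Among the lipolysis genes, the main Pnpla2 probe set (1428143_a_at) read 12064, 12462 and 12264 in WT and 12148, 13229 and 12337 in Pxmp2-/- mice. Of the Pxmp2-/- mice only number 2 lay above all WT mice. The log2 difference was 0.03 ± 0.08 (SE; adjusted p = 0.853), and this signal too was near the maximum, at 55.0% to 60.4% of it. A far dimmer Pnpla2 probe set (1428591_at) read 335, 316 and 394 in WT and 286, 302 and 296 in Pxmp2-/- mice. Here every Pxmp2-/- mouse was below every WT mouse, with a difference of -0.23 ± 0.10 (SE) and a limma adjusted p of 0.316. Without WT 3, the highest mouse, the difference was -0.14 (adjusted p = 0.602). Which part of the transcript each probe set reads was not tested.

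Lipe, the lipase that acts mostly on diglyceride, was among the steadiest of the genes. It read 7300, 7633 and 7441 in WT and 7621, 7569 and 6973 in Pxmp2-/- mice, with a coefficient of variation of 3.42% over the 6 arrays. The log2 difference was -0.01 ± 0.08 (SE), with an interval from 13.3% lower to 13.1% higher. A second Lipe probe set (1432180_at) was below the level filter, at 25 to 52.2.

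Abhd5, the co-activator of Pnpla2, had a pair of tested probe sets that differed from each other. One (1417566_at) read 2741, 3149 and 3528 in WT and 3005, 3160 and 3372 in Pxmp2-/- mice, a log2 difference of 0.02 ± 0.11 (SE; adjusted p = 0.931). The other (1417565_at) read 3090, 3350 and 3597 in WT and 3153, 2626 and 2672 in Pxmp2-/- mice. In it Pxmp2-/- 2 and 3 lay below all WT mice while Pxmp2-/- 1 lay among them. That difference was the largest of the 12 in size, at -0.25 ± 0.11 (SE; limma adjusted p = 0.3, unadjusted p = 0.05004). Its interval ran from 29.2% lower to 0.0042% higher, so it barely included 0. It was -0.33 (adjusted p = 0.156) without Pxmp2-/- 1 and -0.20 (adjusted p = 0.554) without WT 3. A further probe set (1447548_at) was at background, between 3.4 and 16.5.

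G0s2, the inhibitor of Pnpla2, varied most between mice among the brightest probe sets, with a span of 0.40 on the log2 scale. It read 9296, 9576 and 8141 in WT and 8274, 10758 and 9923 in Pxmp2-/- mice. Each genotype held 1 mouse with a low value, WT 3 and Pxmp2-/- 1. The log2 difference was 0.10 ± 0.12 (SE; adjusted p = 0.716), and the interval reached from 12.3% lower to 30.1% higher. Single mice moved it far: it was 0.20 without Pxmp2-/- 1, 0.02 without WT 3 and 0.01 without Pxmp2-/- 2.

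For the 3 genes with a pair of tested probe sets, the log2 ratio of the one with the higher mean over the 6 arrays to the other was taken within each array and compared between genotypes, a comparison added after the values were seen. A ratio within an array cancels a brightness difference that is equal at all levels, but not one that depends on the level. A shift in it shows unequal change of the pair's signals without telling which member changed. The brighter Pnpla2 probe set was near the array maximum, where a change may show less than fully. For Plin5 (1441915_s_at over 1424937_at) the ratio was 1.41, 1.23 and 1.30 in WT and 1.17, 0.99 and 0.96 in Pxmp2-/- mice, a difference of -0.28 with no overlap (exact permutation p = 0.1, two-sided). For Pnpla2 (1428143_a_at over 1428591_at) it was 5.11, 5.23 and 4.90 in WT and 5.33, 5.38 and 5.31 in Pxmp2-/- mice, a difference of 0.26 with no overlap (exact permutation p = 0.1). That difference was 0.17 without WT 3 and 0.21 after quantile normalization. For Abhd5 (1417566_at over 1417565_at) the ratio was -0.17, -0.09 and -0.03 in WT and -0.07, 0.27 and 0.33 in Pxmp2-/- mice, a difference of 0.27 (exact permutation p = 0.2). The Abhd5 pair was nearly equally bright, and the order turned between arrays. Its groups overlapped through Pxmp2-/- 1 alone, without which the difference was 0.40. The value 0.1 is the smallest p that 3 mice against 3 can give, and after Benjamini-Hochberg adjustment over the 3 genes these p-values were 0.15 for Plin5 and Pnpla2 and 0.2 for Abhd5. Groups were separate in 2 of these 3 ratios, and in 19.8% of the same ratios over 5749 genes.

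**Figure D3:**
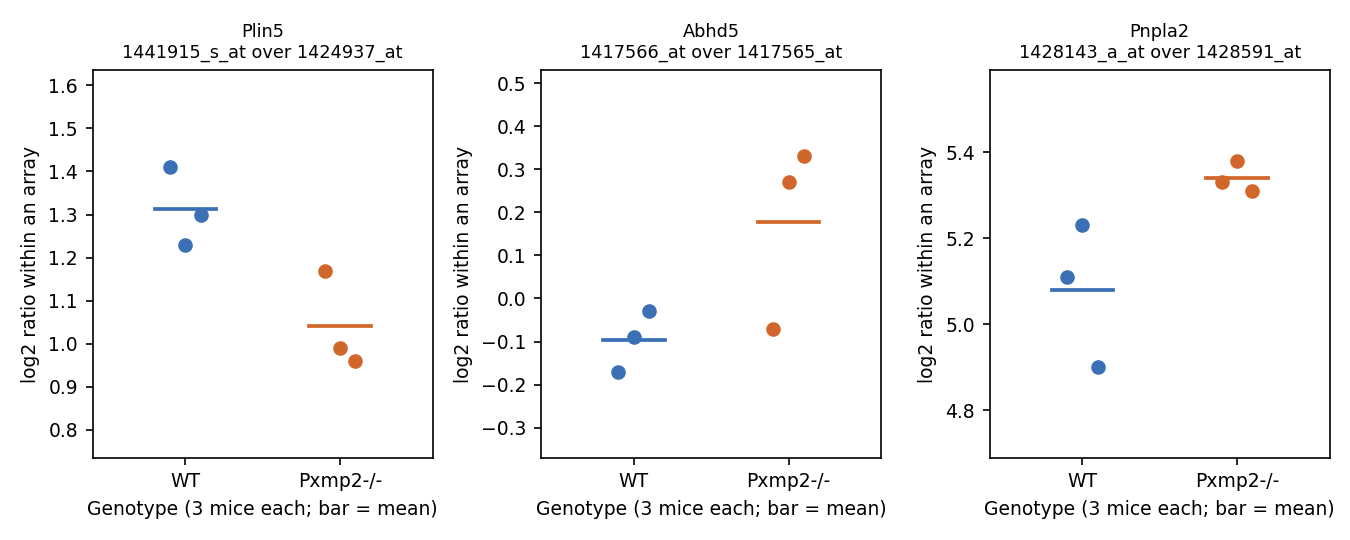
Log2 ratio of the pair of tested probe sets of Plin5, Abhd5 and Pnpla2 within each array, for 3 WT and 3 Pxmp2-/- mice (points are mice, bars are means, each panel spans the same height on the log2 scale). The groups are separate for Plin5 and Pnpla2 and overlap for Abhd5.

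With the brightest probe set standing for each gene, 6 of the 9 genes were higher and 3 lower in Pxmp2-/- mice, with a median log2 difference of 0.01. This leaves out the dimmer tested probe sets of Plin5 (0.17), Pnpla2 (-0.23) and Abhd5 (-0.25), each opposite in sign to the one used. With the median over all tested probe sets of a gene, the median difference was 0.00063. Over all 12775 tested genes 41.7% were higher and the median was -0.03. The median size of the difference, regardless of direction, was 0.02 for the 9 genes, 0.07 for the 1274 genes at least as bright as the dimmest of them (Abhd5), and 0.12 for all tested genes. An unadjusted p under 0.05 was found for 4.87% of those 1274 genes and for none of the 9. Signs of values this close to 0 are loose: Plin2 turned negative after median centring (-0.0085), Plin4 turned positive after quantile normalization (0.0059), and the median of the 9 genes was -0.027 without WT 1 and -0.0043 without Pxmp2-/- 2. Each of the 9 probe sets ranked above 94.3% of all probe sets on every array.

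The 9 genes did not move as one block across the mice. WT 1 was the lowest mouse for 4 of the 9 genes and Pxmp2-/- 1 for 3, while WT 2 and Pxmp2-/- 2 were the highest for 3 each. Their mean deviation from the 6-array mean ran from -0.07 in WT 1 to 0.07 in Pxmp2-/- 2 on the log2 scale, with both genotypes on either side of 0. The brown fat markers deviated in the same extremes, from -0.23 in WT 1 to 0.26 in Pxmp2-/- 2. Of 11 white fat cell markers all were lower in Pxmp2-/- mice, with a median of -0.03 (also -0.03 over all tested genes), none past the adjusted threshold and 2 with separate groups. The mean deviation of these white fat cell markers was separate by a small gap, -0.013 to 0.101 in WT and -0.083 to -0.02 in Pxmp2-/- mice. Their summed level overlapped (133169 to 143774 in WT, 130801 to 137899 in Pxmp2-/- mice). Of 10 tested brown fat markers 8 were higher and 2 lower, none past the adjusted threshold and none with separate groups. The 2 with an unadjusted limma p under 0.05 went opposite ways. The regulator gene Prdm16 was lower (-0.40, adjusted p = 0.248) and Otop1 higher (0.44, adjusted p = 0.26). The summed endothelial markers were lower in every Pxmp2-/- mouse than in any WT mouse (summed level 16682 to 18741 against 20581 to 21798 over 8 genes). Of these genes 7 were lower, and none passed the adjusted threshold. An unadjusted limma p under 0.05 was found for 5 of the 8, against 14.2% of all tested genes. Groups were separate for 6 of the 8, against 22.6%. The epithelial markers had sums of 945 to 1145 in Pxmp2-/- mice against 830 to 890 in WT mice. Only 3 of the 10 were tested, the others being under the level filter. The milk gene Wap alone read 463 to 575, with overlapping groups. All 3 were higher in Pxmp2-/- mice, none past the adjusted threshold. For 2 of the 3 the unadjusted limma p was under 0.05, against 14.2%, and 1 of the 3 (Lalba) had separate groups, against 22.6%. These 2 were Cdh1 (1.01, adjusted p = 0.252) and Lalba (0.41, adjusted p = 0.232). Both were dim, at 39.8 to 199.5 and 57.5 to 105.2. The part of these cells in the values of the 9 genes was not tested.

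**Figure D4:**
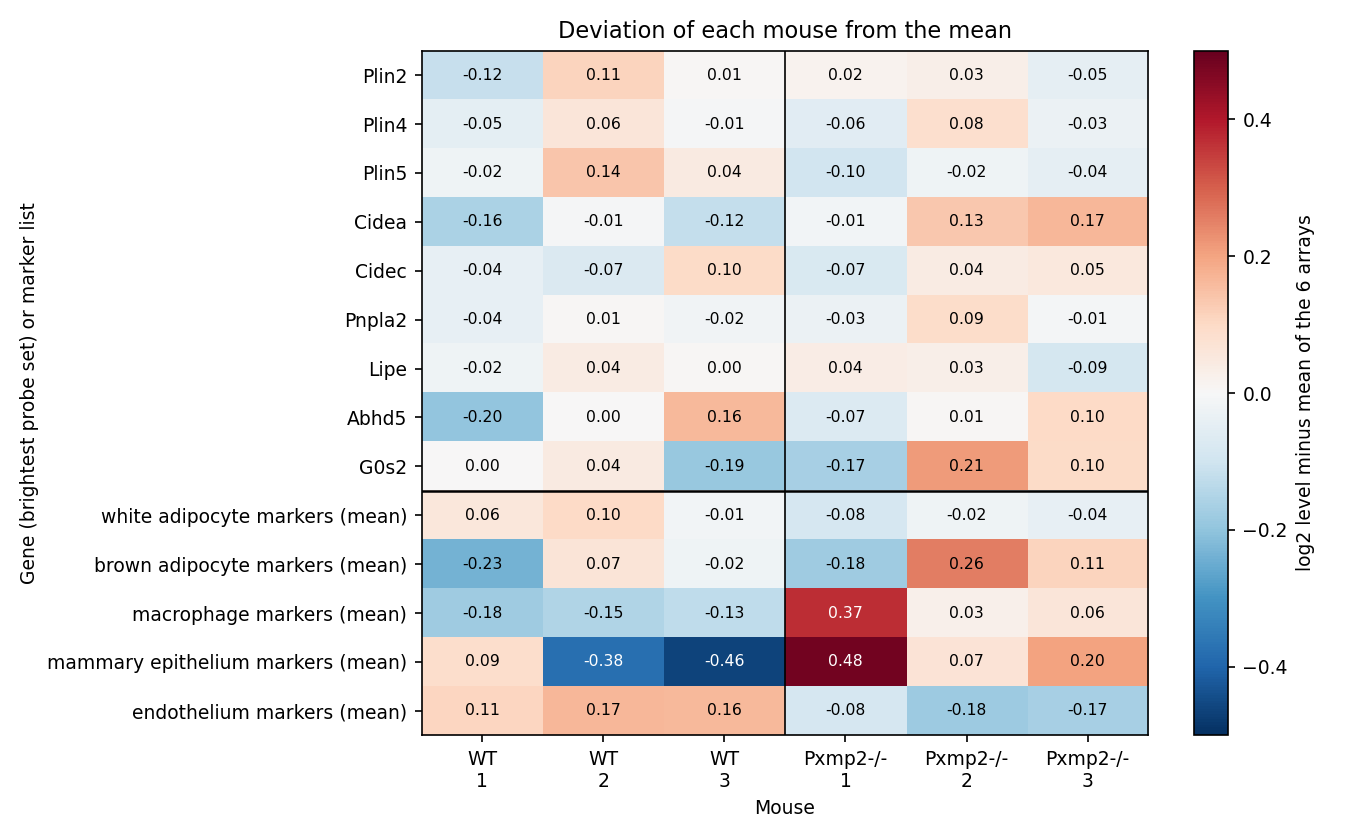
Log2 level of each gene (brightest probe set) in each mouse minus the mean of the 6 arrays, with the mean deviation of 5 marker lists below the line; red is higher, blue lower. The 9 genes stay between -0.20 and 0.21, while macrophage and endothelial markers and, by a small gap, white fat cell markers separate the genotypes.

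The genes around this core were read from 5 lists, and with the brightest probe set per gene none of their genes passed (limma, adjusted p under 0.05), where 0.0391% of all tested genes did. Over the 5 lists 1 of 68 tested genes had an unadjusted p under 0.05, against 14.2% of all tested genes, and 6 of 68 had separate groups, against 22.6%. Of 15 tested genes that carry hormone signals to the lipases, 7 were higher and 8 lower, with a median log2 difference of -0.01 and 1 at an unadjusted p under 0.05. That gene was Adcy3, an adenylyl cyclase, which read 1597, 1337 and 1669 in WT and 1789, 1770 and 1973 in Pxmp2-/- mice (log2 difference 0.27 ± 0.11 SE, adjusted p = 0.283). All Pxmp2-/- mice were above the WT mice for it, and without WT 2 the difference was 0.17. The protein kinase A subunit gene Prkar2b differed by 0.11 and the cyclase gene Adcy6 by -0.11.

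Of 7 tested genes of the later steps, which split monoglyceride and let glycerol and fatty acids pass the membrane, 3 were higher and 4 lower, with a median of -0.03 and 0 at an unadjusted p under 0.05. The glycerol channel gene Aqp7 read 1506, 1654 and 2084 in WT and 1582, 1355 and 1340 in Pxmp2-/- mice (-0.28 ± 0.14 SE, limma adjusted p = 0.338). Its groups overlapped through Pxmp2-/- 1, and without WT 3 the difference was -0.15. The monoglyceride lipase gene Abhd6 differed by 0.17 and the fatty acid transporter gene Cd36 by 0.09.

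Among 24 other droplet protein genes, 10 were higher and 14 lower, with a median of -0.02 and 0 at an unadjusted p under 0.05. Rab18, a small GTPase on droplets, read 3218, 3126 and 3163 in WT and 3444, 3524 and 3780 in Pxmp2-/- mice (0.18 ± 0.08 SE, limma adjusted p = 0.325). Aifm2, a droplet-bound oxidoreductase, read 4668, 4991 and 5241 in WT and 4554, 4426 and 4237 in Pxmp2-/- mice (-0.17 ± 0.09 SE, adjusted p = 0.352). Both had separate groups, as did 3 of the 24 genes in all. Hilpda, another inhibitor of Pnpla2, differed by -0.18 ± 0.11 (SE). One gene of this list passed in a dimmer probe set: Hsd17b11, on whose probe set 1421011_at the WT mice read 167, 175 and 191 and the Pxmp2-/- mice 410, 387 and 358 (log2 difference 1.05 ± 0.09 SE, limma adjusted p = 0.0249), while its brightest probe set differed by 0.02. This call was lost in 7 of 15 alternative fits, with the difference between 0.89 and 1.11 over all 15. It was lost with no level filter (adjusted p = 0.175), with the replicate block (0.206) and on leaving out WT 1, WT 2, WT 3, Pxmp2-/- 2 or Pxmp2-/- 3 (0.066, 0.145, 0.117, 0.142 and 0.15).

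Of 11 other neutral lipase genes, 5 were higher and 6 lower, with a median of -0.0027 and 0 at an unadjusted p under 0.05. Pnpla3, a relative of Pnpla2, varied widely within each genotype, with 4636, 3179 and 1936 in WT and 1027, 2396 and 3143 in Pxmp2-/- mice. Its log2 difference of -0.62 had an SE of 0.44 and overlapping groups, and was -0.15 without Pxmp2-/- 1. Pnpla8 differed by 0.13 and the lipase gene Ddhd2 by -0.15. Of 11 transcription regulators of droplet genes, 3 were higher and 8 lower, with a median of -0.10 and 0 at an unadjusted p under 0.05. Foxo1, an activator of Pnpla2 in fasting, read 2955, 2733 and 3776 in WT and 2451, 2715 and 2616 in Pxmp2-/- mice (-0.27 ± 0.13 SE, limma adjusted p = 0.337). The groups were separate, by a small gap between WT 2 and Pxmp2-/- 2, and without WT 3 the difference was -0.13. The coactivator gene Ppargc1a differed by 0.26 ± 0.14, with Pxmp2-/- 2 at 419 and the other mice between 270 and 320, and by 0.11 without that mouse. Rxra differed by -0.22 ± 0.12.

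**Figure D5:**
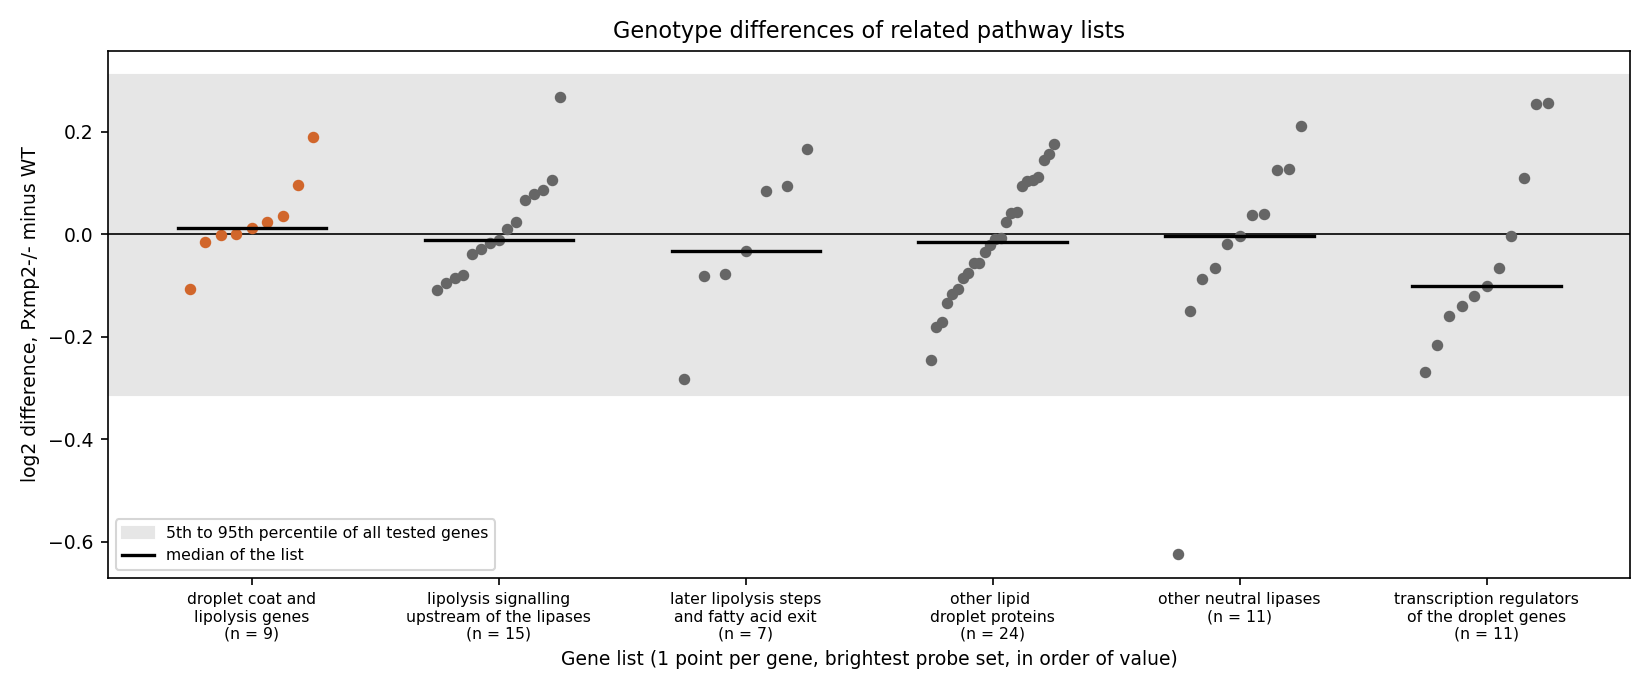
Log2 difference, Pxmp2-/- minus WT, of every tested gene (brightest probe set) in the droplet coat and lipolysis set and 5 related lists; black bars are medians and the grey area holds the 5th to 95th percentile of all tested genes. Pnpla3, at -0.62, is the only point outside the grey area.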

How the data were processed

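The authors deposited intensities on a linear scale for 45037 probe sets on 6 Affymetrix arrays, from biotin-labelled total RNA per the labels' protocols. Summarisation and scaling are not given in the sources used here. All 6 columns matched a sample. Probe sets were named by the platform annotation, which gave 34945 of them 1 symbol, 932 several and 9160 none.

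Values were transformed to log2(intensity + 16), so log2 differences understate the change of dim genes. The 27022 probe sets with a mean level above the 40th percentile (intensity 59.1) went into 1 two-sided limma fit (version 3.58.1, R 4.3.3) of Pxmp2-/- minus WT with empirical Bayes moderation. P-values were adjusted over the 27022 by Benjamini-Hochberg, with 0.05 as the threshold. The number of arrays, 3 per genotype, limits precision. The pipeline was tested on simulated data. The 10 genes and all lists were chosen with earlier results of these data known. Named list genes were the 3 with the smallest p per list and any past the threshold. Single cell markers were named after their values were seen. Mice were not paired by number, since same-numbered ones correlated at 0.0222, 0.0443 and -0.119. Alternatives covered normalization, pseudocount, filter, variance model, array weights, the block and single arrays. Chromosomes and gene order come from RefSeq (GRCm38.p6). Plots used matplotlib 3.10.9.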

Additional observations from a re-analysis of the deposited data

How the results depend on the processing

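The 12 probe sets of the 9 genes had no call under any of the 15 alternative fits. The count over all tested probe sets, 17, moved to 1 with no level filter, 34 with a mean-variance trend, 26 with array weights and 1 with the replicate block, and ranged from 1 to 33 without single arrays (6, 2 and 1 on leaving out WT 1, 2 and 3, and 33, 1 and 1 on leaving out Pxmp2-/- 1, 2 and 3). With the smallest-p probe set per gene, 1 gene of the related lists passed, Hsd17b11. Near-zero differences changed sign. Plin4 was 0.0059 after quantile normalization and 0.019 with array weights, and Plin2 was -0.0085 after median centring. Without single arrays Plin2 ranged from -0.058 to 0.056, Plin4 from -0.044 to 0.027, Cidec from -0.021 to 0.063, Pnpla2 (1428143_a_at) from -0.0024 to 0.059, Lipe from -0.038 to 0.026 and Abhd5 (1417566_at) from -0.070 to 0.11. The causes were not tested. The other probe sets of Plin5, Cidea, Pnpla2, Abhd5 and G0s2 kept their direction in these fits. Over 9 alternatives chosen after seeing the data, the probe-set ratio differed by -0.34 to -0.23 for Plin5, 0.19 to 0.40 for Abhd5 and 0.17 to 0.34 for Pnpla2. Every named gene of the related lists kept its direction in the same 15 fits, added after seeing the data, and Hsd17b11 lost its call in 7. Signals near the array maximum may limit what Plin4 and Pnpla2 (1428143_a_at) can show, which was not tested.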
